A study of Mus musculus with 16 samples.

Results

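The connexin and pannexin genes Gja1, Gjb6, Gjb2, Gjc1, Gjc3, Gjd2, Panx1 and Panx2 were followed in RNA from astrocyte ribosomes and from whole cortex. They were chosen by symbol, as the rows carrying these names, and all 8 were found among the 24060 gene rows of each of the 16 libraries. All mice were 3-month-old Aldh1l1CreERT2-RiboTag animals on a C57BL/6J background that had received tamoxifen at 2 months of age, and RNA came from the somatosensory cortex. In RiboTag mice, Cre recombination switches the ribosomal protein Rpl22 to a version with an HA tag. Here Cre was driven by the promoter of Aldh1l1, a folate enzyme gene of astrocytes, and needed tamoxifen to act, so that ribosomes with their mRNA could be pulled from the lysate with an antibody against HA. This immunoprecipitate (IP) and the cleared lysate (INPUT, RNA of all cell types) were sequenced from naïve mice, which stayed in the home cage, and from stressed mice, which swam for 20 min and then recovered for 90 min before collection. Each of the 4 kinds of RNA (naïve or stress, IP or INPUT) was sequenced in 4 libraries, and replicate numbers given here are the library numbers. Values of single libraries are listed in the order 2, 8, 11 and 13 for naïve IP, 4, 5, 6 and 15 for stress IP, 3, 7, 14 and 16 for naïve INPUT and 1, 9, 10 and 12 for stress INPUT. Which IP and INPUT libraries came from the same mouse, and the sex of each mouse, are not given with the samples.

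Connexins are membrane proteins that assemble as hexamers, and a pair of hexamers from neighbouring cells docks into a gap junction channel through which ions and small metabolites pass. Pannexins have a similar fold but form large-pore channels of a single membrane, which release ATP. Astrocytes are coupled into networks mainly by Gja1, which encodes Cx43, and Gjb6, which encodes Cx30. Gjb2 (Cx26) is known from astrocytes and from the leptomeninges, Gjc3 (Cx29) from oligodendrocytes, Gjc1 (Cx45) from neurons and vessel walls, and Gjd2 (Cx36) from electrical synapses between interneurons. Panx1 and Panx2 are the pannexins of the brain, with high levels in neurons. The study asked whether an acute swim stress alters astrocytes and their gap junction coupling.

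The genes lie on 7 chromosomes of GRCm38 (mm10), with GENCODE M21 coordinates as follows. Gja1 spans chr10:56377330-56402513 on the plus strand, and Panx2 spans chr15:89059734-89073567 on the same strand. On the minus strand are Gjc1 at chr11:102799579-102819700, Gjc3 at chr5:137953461-137963098, Gjd2 at chr2:114009601-114013619 and Panx1 at chr9:15002128-15045478. Gjb2 (chr14:57098600-57104702) and Gjb6 (chr14:57123303-57133611) are neighbours on the minus strand of chromosome 14, with 18600 bases between them. A noncoding gene on the opposite strand overlaps Panx2 (1810021B22Rik) and Gjd2 (A530058N18Rik). Whether the counting used strand is not given in the sources used here, so reads of these pairs may not have been told apart.

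The 3 genes that were higher in IP, Gjb2 by a much smaller factor, are shown by the 250 bases before their RefSeq start (GRCm38.p6). Of these, Gjb6 and Gjb2 are the neighbours named above. Capitals mark matches, on either strand, to 6 short motifs. The core bound by SOX factors was searched as ACAAT and the core bound by TCF/LEF factors of Wnt signalling as CTTTGA. The half-site of the glucocorticoid receptor was searched as AGAACA and the site of the stress-responsive AP-1 factors as TGANTCA. The GC box was searched as GGGCGG and the TATA box as TATAAA. A match on the other strand is printed as its reverse complement.
Gja1, chr10:56377050-56377299, plus strand: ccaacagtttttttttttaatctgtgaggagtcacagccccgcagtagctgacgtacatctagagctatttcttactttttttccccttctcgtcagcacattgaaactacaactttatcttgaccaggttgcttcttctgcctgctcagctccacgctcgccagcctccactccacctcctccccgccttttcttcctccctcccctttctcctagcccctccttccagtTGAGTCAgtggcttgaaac
Gjb6, chr14:57133612-57133861, minus strand: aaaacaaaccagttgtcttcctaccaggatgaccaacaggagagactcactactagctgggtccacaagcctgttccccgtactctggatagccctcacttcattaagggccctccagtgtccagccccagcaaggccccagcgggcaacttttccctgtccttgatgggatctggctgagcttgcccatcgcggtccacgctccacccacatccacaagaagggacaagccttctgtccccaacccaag
Gjb2, chr14:57104703-57104952, minus strand: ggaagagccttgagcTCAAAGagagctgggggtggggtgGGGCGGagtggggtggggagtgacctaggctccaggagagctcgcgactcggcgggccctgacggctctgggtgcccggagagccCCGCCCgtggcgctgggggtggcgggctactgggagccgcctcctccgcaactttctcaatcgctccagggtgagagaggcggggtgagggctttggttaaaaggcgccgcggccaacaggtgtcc
In the Gja1 window there was 1 match, to the AP-1 site, which began 19 bases before the start. None of the 6 motifs was found in the Gjb6 window, whereas the Gjb2 window held a TCF/LEF core 235 bases before the start and GC boxes 211 and 126 bases before it. Over 32817 windows of this length in the RefSeq table, the SOX core was found in 27.7%, the TCF/LEF core in 13.8%, the glucocorticoid half-site in 16.1%, the AP-1 site in 6.75%, the GC box in 32.7% and the TATA box in 12.4%. Of the 6 genes with a window (also Gjc3, Gjd2 and Panx1), none held the SOX core, the glucocorticoid half-site or the TATA box. The TCF/LEF core was found in 2 of the 6, the AP-1 site in 1 and the GC box in 2. No conclusion is drawn from counts over so few windows. The GC content of the printed windows was 50.0% for Gja1, 56.8% for Gjb6 and 69.2% for Gjb2, against a median of 52.4% over all windows.

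Between 16392876 and 25814364 fragments per library were counted on genes, and values are given as CPM, the counts on a gene divided by this total and scaled to 1000000. The 6 astrocyte markers (Aldh1l1, Slc1a2, Slc1a3, Aqp4, Aldoc and Gfap) all had higher levels in IP in naïve mice, with log2 fold changes from 3.42 to 4.13. All 6 neuronal, 5 oligodendrocyte, 4 microglial and 4 endothelial markers were lower, with list medians of −4.12, −3.50, −3.09 and −2.97. Of all genes tested, 23.7% were called higher and 64.0% lower. Aif1, Cldn5 and Esam had means under 1 CPM in naïve IP and were tested only through their INPUT level. For them a lower value in IP was a condition of being tested. The 4 mural markers, of the cells that wrap vessels, were mixed. Pdgfrb was higher in IP (132 against 25.4 CPM, naïve means), Rgs5 and Kcnj8 were lower and Acta2 was too low to be tested. Kcnj8, at 0.252 CPM in naïve IP, was likewise tested only through INPUT (3.92 CPM). The mural list summed to between 134 and 155 CPM in naïve IP against 50.9 to 55.8 CPM in naïve INPUT. None of the neuronal, oligodendrocyte, microglial and endothelial lists was at 0 in IP, where the neuronal markers summed to between 334 and 551 CPM against 9619 to 11272 CPM in INPUT. The 5 leptomeningeal markers (Dcn, Lum, Col1a1, Col1a2 and Slc6a13) did not follow this split, summing to between 48.8 and 99.3 CPM in IP and 38.9 to 67.9 CPM in INPUT, with naïve IP replicate 11 highest. Naïve IP replicate 2 stood apart in the choroid plexus gene Ttr, at 114 CPM. The other marker of choroid plexus and ependyma, Foxj1, did not share this, at 3.28 to 5.97 CPM over the naïve IP libraries. The median of all 13339 genes tested was a log2 fold change of −0.64 between IP and INPUT in naïve mice. Rescaling the libraries by their median ratio moves this median by 0.64, and connexin values under that scaling are given below.

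**Figure D1:**
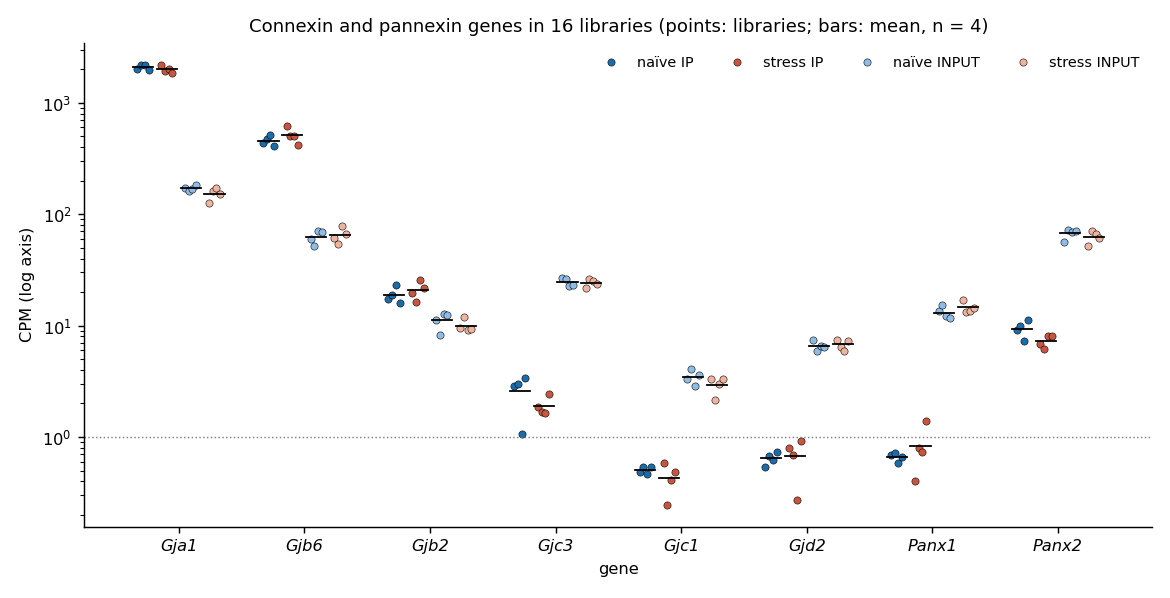
CPM of each gene (log axis) in each of the 16 libraries, with points for libraries, horizontal bars for the mean of 4 and a dotted line at 1 CPM. For Gja1, Gjb6 and Gjb2 the IP points lie above the INPUT points, and for the other 5 genes they lie below, with Gjc1 and Gjd2 under 1 CPM in all IP libraries and Panx1 in all but 1.

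In naïve mice the 8 genes split into 3 that were higher in IP (Gja1, Gjb6 and Gjb2) and 5 that were lower (Gjc1, Gjc3, Gjd2, Panx1 and Panx2). The test was limma on log2(CPM + 0.1) over every gene whose mean over both groups exceeded 1 CPM, with a Benjamini-Hochberg adjusted p under 0.05. Of all genes tested, 23.7% were called higher and 64.0% lower, so a call by itself sets these genes little apart, and their sizes are given below. Gjc1, Gjd2 and Panx1 passed the filter on the mean only through their INPUT level, so for them a difference in this direction was a condition of being tested. In stressed mice the same 3 genes were higher and the same 5 lower, where 23.6% of 13333 genes were called higher and 62.5% lower. The IP and INPUT values of all 8 genes did not overlap in either condition, and the two-sided exact permutation test gave each the smallest p that 70 labelings allow, 0.029. The share of all genes tested that were as separate was not counted. With most genes called between IP and INPUT, this separation does not by itself set the 8 apart. The groups hold 4 libraries each, and these comparisons treat IP and INPUT as independent although they come from the same mice.

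Gja1 was the connexin with the largest difference in favour of astrocyte ribosomes. Its level was 1999, 2186, 2175 and 1982 CPM in naïve IP against 171, 162, 168 and 182 CPM in naïve INPUT. Every IP library was thus above every INPUT library, and the spread within each group was small beside the gap. The fold change was 12.2 (95% confidence interval 11.2 to 13.3), a log2 value of 3.61 ± 0.06 (SE) with a limma adjusted p of 7.5e-15. In stressed mice it was 13.1-fold (11.3 to 15.0). These values lie within the range of the 6 astrocyte markers.

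Gjb6 followed with a smaller difference. Naïve IP held 433, 473, 513 and 405 CPM and naïve INPUT 59.6, 51.6, 70.2 and 68.9 CPM. The groups were well apart, with more scatter relative to the mean than for Gja1. The fold change was 7.30 (6.31 to 8.46), with log2 2.87 ± 0.10 and a limma adjusted p of 4.1e-12, and in stressed mice it was 7.81 (6.47 to 9.44). Its log2 value was below that of every astrocyte marker in naïve mice.

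Gjb2 was higher in IP by a much smaller factor. Its levels were 17.2, 18.9, 23.2 and 15.9 CPM in naïve IP and 11.1, 8.24, 12.8 and 12.6 CPM in naïve INPUT, from 140 to 593 reads a library. The lowest IP library (15.9 CPM) was near the highest INPUT library (12.8 CPM), but the groups did not overlap. The fold change was 1.69 (1.35 to 2.11), with log2 0.75 ± 0.15 and a limma adjusted p of 3.2e-04. In stressed mice IP held 19.5, 16.1, 25.8 and 21.9 CPM and INPUT 9.52, 11.9, 9.22 and 9.38 CPM, a 2.05-fold difference (1.65 to 2.55). Replicate 11, the highest naïve IP library for Gjb2, was also the one with the most leptomeningeal marker RNA (99.3 CPM), while replicate 6, the highest stress IP library for Gjb2, held 58.4 CPM of it, within the range of the others. Without replicate 11 the log2 fold change of Gjb2 was 0.65 with a limma adjusted p of 7.4e-04, and the part of leptomeningeal RNA in the Gjb2 level was not tested. Of the leptomeningeal markers, 1 was called higher and 3 lower in naïve IP, with log2 values from −1.62 to 1.25, a range that includes that of Gjb2. Among these markers Lum, at 0.462 CPM in naïve IP, was tested only through INPUT (1.57 CPM).

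Gjc3, the oligodendrocyte connexin, was at 2.89, 3.00, 1.06 and 3.41 CPM in naïve IP and at 27.0, 26.0, 22.8 and 23.2 CPM in naïve INPUT. Replicate 11 was the low one, with 27 reads against 59 to 88 in the other naïve IP libraries. The same library also had the lowest sum of the 5 oligodendrocyte markers in IP (122 CPM, against 132 to 200 CPM in the other IP libraries), whose part in the Gjc3 level was not tested. The gene was 10.0-fold lower in IP (log2 −3.32 ± 0.27, limma adjusted p 5.8e-08), which lies inside the range of the oligodendrocyte markers (−3.92 to −3.06). It also lies inside the microglial (−4.22 to −2.74), endothelial (−3.89 to −1.91) and mural (−3.53 to 2.37) ranges. The ratio of Gjc3 thus does not tell these cell types apart. Without replicate 11 the log2 value was −2.96. In stressed mice Gjc3 was 12.2-fold lower.

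Gjc1 and Gjd2 were scarce in IP, and the part of RNA from other cell types in their IP values was not tested. Gjc1 was measured at 0.489, 0.537, 0.470 and 0.542 CPM in naïve IP, from 10 to 14 reads, and at 3.33, 4.06, 2.84 and 3.61 CPM in naïve INPUT. It was 5.80-fold lower in IP (log2 −2.54 ± 0.20, limma adjusted p 4.5e-08), the smallest drop of the 5. Gjd2, the connexin of electrical synapses, was at 0.538, 0.672, 0.627 and 0.736 CPM in naïve IP, from 11 to 19 reads, and at 7.45, 5.95, 6.53 and 6.41 CPM in naïve INPUT. It was 9.01-fold lower (log2 −3.17 ± 0.17, limma adjusted p 7.1e-10), whereas the neuronal markers ranged from −4.74 to −3.88. At such counts the pseudocount of 0.1 CPM pulls the fold change towards 1. In bulk samples like these, a lower level from fewer cells of a type in the sample and one from less RNA per cell cannot be told apart. The log2 value of Gjd2 lies inside the oligodendrocyte, microglial, endothelial and mural ranges given above. That of Gjc1 lies inside the endothelial and mural ranges and the range of the 2 oligodendrocyte precursor markers (−2.61 to −1.53). These ratios thus do not tell the cell types apart.

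Panx1 had the largest drop of the 8 genes. It was at 0.685, 0.717, 0.587 and 0.659 CPM in naïve IP, from 14 to 17 reads, and at 13.4, 15.2, 12.1 and 11.6 CPM in naïve INPUT. All 4 IP values lay close together and far below INPUT. The gene was 17.3-fold lower in IP (log2 −4.11 ± 0.15, limma adjusted p 1.1e-11), inside the range of the neuronal markers and also of the microglial markers (−4.22 to −2.74). As stated above, Panx1 was tested only through its INPUT level. Under the other settings its log2 value ran from −4.28 to −3.07. Panx2, by contrast, was at 9.10, 9.94, 7.28 and 11.2 CPM in naïve IP against 56.5, 72.5, 68.7 and 71.0 CPM in naïve INPUT. Its difference was 7.15-fold (log2 −2.84 ± 0.12, limma adjusted p 5.1e-11), smaller than that of any neuronal marker. The log2 value of Panx2 lies inside the microglial, endothelial and mural ranges. In stressed mice Panx1 was 17.0-fold and Panx2 8.58-fold lower in IP.

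**Figure D2:**
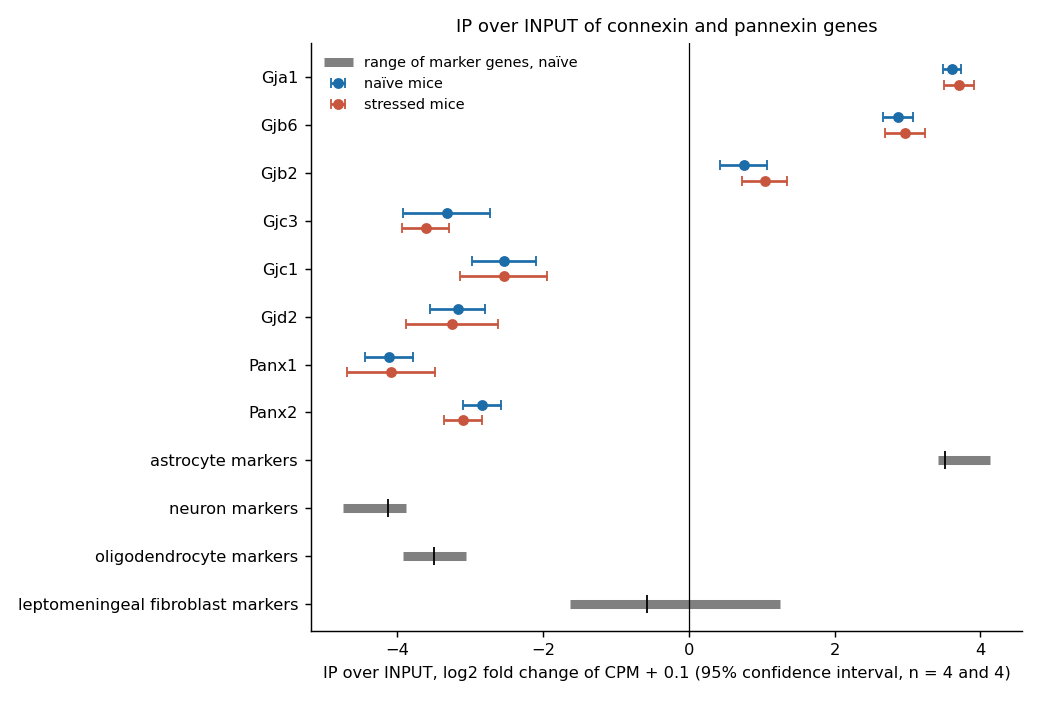
IP over INPUT as the log2 fold change of CPM + 0.1 for each gene, in naïve (blue) and stressed (red) mice, with 95% confidence intervals from limma, 4 libraries against 4. Grey bars give the range of marker genes in naïve mice with a tick at their median, and Gja1 falls on the astrocyte bar, Gjb6 to its left and Gjb2 near 0, while Gjc3 falls on the oligodendrocyte bar and Panx1 on the neuronal bar. Microglial, endothelial and mural ranges are not drawn. All of these also hold Gjc3, and the microglial range also holds Panx1.

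With the libraries rescaled by their median ratio, the 3 genes were again higher and the 5 lower in both conditions. The log2 values in naïve mice were then 4.25 for Gja1, 3.51 for Gjb6, 1.39 for Gjb2, −1.96 for Gjc1, −2.70 for Gjc3, −2.58 for Gjd2, −3.51 for Panx1 and −2.20 for Panx2. The size of each difference thus depends on the scaling, and its direction did not under the 2 scalings tried, the other being quantile normalization.

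Levels of different genes were compared per length, since longer transcripts give more fragments. Per kilobase of merged exons, the naïve IP levels were 203 ± 10.7 (SD, n = 4) for Gja1, 171 ± 17.6 for Gjb6, 7.82 ± 1.33 for Gjb2 and 2.60 ± 0.45 for Panx2, in CPM per kb. Gjc3 came next at 0.594 ± 0.240, then Gjd2 at 0.223 ± 0.029, Panx1 at 0.110 ± 0.009 and Gjc1 at 0.102 ± 0.007. Neighbours in this order did not overlap over the 4 libraries, except Gjc3 with Gjd2 and Panx1 with Gjc1. In naïve INPUT the order was Gjb6 (23.4 ± 3.26), Panx2 (18.7 ± 2.03), Gja1 (16.6 ± 0.80), Gjc3 (5.68 ± 0.47), Gjb2 (4.64 ± 0.87), Gjd2 (2.29 ± 0.22), Panx1 (2.17 ± 0.26) and Gjc1 (0.692 ± 0.102). There Gjb6 overlapped Panx2, Panx2 overlapped Gja1, Gjc3 overlapped Gjb2 and Gjd2 overlapped Panx1, so the order within each of these pairs is not set by these libraries. The place of Gja1 also depends on the length used. Per kilobase of the longest transcript, Gja1 came first in naïve INPUT at 43.9 ± 2.10, above Gjb6 at 29.7 ± 4.14 without overlap.

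Expressed as shares of the summed level per length, Gja1 made up 52.8% ± 1.4 (SD, n = 4) and Gjb6 44.2% ± 1.44 of the naïve IP total. Together they accounted for 97.0% ± 0.07, and Gjb2 added 2.02% ± 0.20. In naïve INPUT the same pair accounted for 53.9% ± 2.54, while Panx2 held 25.2% ± 2.74, Gjc3 7.71% ± 1.07, Gjb2 6.23% ± 0.91, Gjd2 3.09% ± 0.37, Panx1 2.95% ± 0.52 and Gjc1 0.938% ± 0.173. The shares of Gja1 rest on a long merged exon length of 10257 bases, which includes retained introns, whereas the longest transcript has 3889 bases and the longest with a RefSeq match 3071 bases. With the RefSeq-matched length, an alternative chosen after seeing the data because the authors counted on RefSeq genes, Gja1 held 74.9% and Gjb6 23.8% in naïve IP, and Gja1 held 45.6% and Gjb6 24.3% in naïve INPUT. The lead of Gja1 over Gjb6 in naïve IP held with all 3 lengths, and in naïve INPUT Gja1 moved from the third place to the first.

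**Figure D3:**
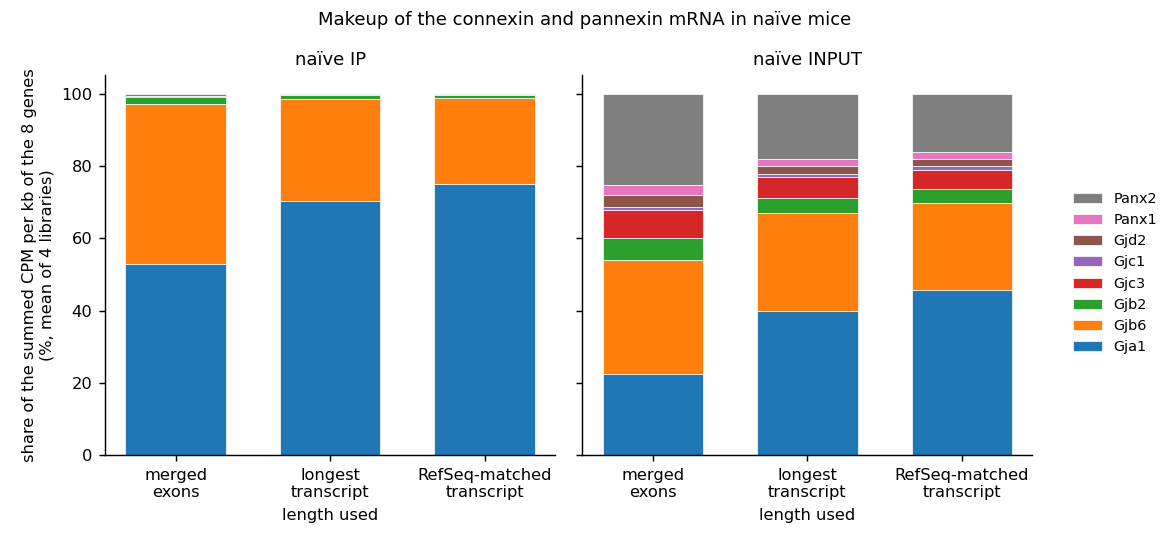
Share of each gene in the summed CPM per kb of the 8 genes (%, mean of 4 libraries) in naïve IP and naïve INPUT, under 3 definitions of length. Gja1 and Gjb6 fill nearly the whole IP bar with any length, while the split between them moves from 52.8% and 44.2% with merged exons to 74.9% and 23.8% with the RefSeq-matched transcript, and Panx2 and Gjc3 are visible in the INPUT bars.

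None of the 8 genes passed the test for a stress effect in IP or in INPUT. In IP 5 of them entered the fit, since Gjc1, Gjd2 and Panx1 were under a mean of 1 CPM, and 0.440% of the 12501 genes tested were called (55 genes), with 1034 at an unadjusted p under 0.05. In INPUT all 8 were tested, and 0.0442% of 13577 genes were called (6 genes), with 683 at an unadjusted p under 0.05. At an unadjusted p under 0.05 there was 1 of the 5 in IP (Panx2) and 0 of the 8 in INPUT. The stress and naïve values of every one of the 8 genes overlapped in both fractions, while over all genes tested 5.00% did not overlap in IP and 2.87% in INPUT. The same test called Sox9, a transcription factor of astrocytes known to regulate Gjb6, lower in stress IP, at 203 ± 21.0 CPM (SD, n = 4) against 319 ± 30.3 CPM (log2 −0.65 ± 0.08, limma adjusted p 0.0062). The study had already reported this decrease from the same libraries, and Sox9 was looked up for that reason, so its call is not an independent result. Without a variance trend in the fit, the adjusted p of Sox9 was 0.062. In INPUT Sox9 was at 13.5 ± 1.78 CPM under stress and 19.8 ± 2.77 CPM in naïve mice, with no overlap (log2 −0.55 ± 0.12, unadjusted p 4.7e-04, limma adjusted p 0.19). The difference between both effects of stress on Sox9 was −0.10 (95% confidence interval −0.42 to 0.22) and was not called.

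Gja1 was at 2196, 1908, 1996 and 1853 CPM in stress IP. Of these, 1 was above all naïve IP libraries and 2 were below them all. The log2 difference was −0.07 (95% confidence interval −0.22 to 0.08, limma adjusted p 0.84), a fold change of 0.952 with an interval from 0.860 to 1.06. In stress INPUT Gja1 was at 126, 163, 172 and 151 CPM, where replicates 1 and 12 were below all naïve libraries and the other two within their range. The log2 difference there was −0.17 (−0.34 to 0.01, limma adjusted p 0.99).

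Gjb6 was at 619, 502, 501 and 415 CPM in stress IP, with replicate 4 above all naïve libraries and replicate 15 near the lowest. The log2 difference was 0.15 (−0.09 to 0.39, limma adjusted p 0.77), and the interval includes no change. In stress INPUT it was at 61.1, 54.2, 78.5 and 66.3 CPM, with a log2 difference of 0.05 (−0.19 to 0.30, limma adjusted p 0.99). Gjb2 differed by 0.14 in IP (−0.18 to 0.46) and by −0.14 in INPUT (−0.45 to 0.16). The intervals of Gjb6 and Gjb2 held 0 in both fractions.

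Panx2 was the member with the smallest unadjusted p in IP. It was at 6.78, 6.11, 8.03 and 8.00 CPM in stress IP, where 2 of 4 libraries were below the lowest naïve library, replicate 11 at 7.28 CPM. The log2 difference was −0.36 (−0.68 to −0.04) with an unadjusted p of 0.029, a limma adjusted p of 0.54 and an exact permutation p of 0.086. It failed the correction. The neuronal markers, of which none was called, differed by −0.33 to −0.06 between stress and naïve IP, and their part in the Panx2 value was not tested. In INPUT, where Panx2 is abundant, stress libraries held 51.9, 70.9, 66.6 and 61.7 CPM and the log2 difference was −0.10 (−0.31 to 0.11).

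The scarce genes gave wide intervals or none. Gjc3 in stress IP was at 1.87, 1.68, 1.64 and 2.45 CPM, all below 3 of the 4 naïve libraries and above the fourth, with a log2 difference of −0.32 (−1.02 to 0.38, limma adjusted p 0.84). Panx1 in stress IP was at 0.401, 0.789, 0.730 and 1.41 CPM, from 9 to 35 reads, with replicate 15 at the top. Gjc1 was at 0.580, 0.247, 0.411 and 0.482 CPM and Gjd2 at 0.803, 0.690, 0.274 and 0.924 CPM, from 5 to 23 reads in the 8 values. These 3 genes did not enter the fit for stress in IP, and the two-sided exact permutation p of each was 0.60 for Panx1, 0.34 for Gjc1 and 0.97 for Gjd2. In INPUT they were better measured, and their log2 differences were 0.16 for Panx1 (−0.08 to 0.40), −0.24 for Gjc1 (−0.64 to 0.16) and 0.04 for Gjd2 (−0.23 to 0.31).

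**Figure D4:**
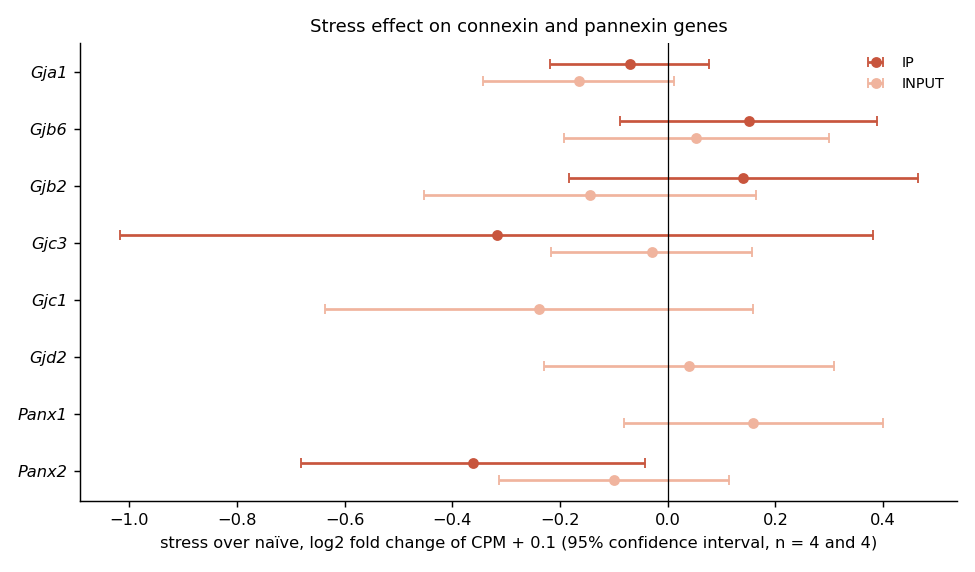
Stress over naïve as the log2 fold change of CPM + 0.1 in IP (dark) and INPUT (light), with 95% confidence intervals from limma, 4 libraries against 4. Every interval includes 0 except that of Panx2 in IP (−0.68 to −0.04), which did not pass the correction over all genes, and Gjc1, Gjd2 and Panx1 have no IP value because their mean was under 1 CPM.

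The difference between the stress effects in IP and INPUT, tested with all 16 libraries, was not called for any of the 8 genes. Of 13341 genes tested, 0.0225% were called (3 genes), with 629 at an unadjusted p under 0.05, none of them among the 8. The largest estimates were −0.29 for Gjc3 (95% confidence interval −1.01 to 0.43), 0.28 for Gjb2 (−0.18 to 0.75) and −0.26 for Panx2 (−0.65 to 0.12). For Gja1 it was 0.09 (−0.14 to 0.33) and for Gjb6 0.10 (−0.27 to 0.47), with 0 inside both intervals.

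The ratio of Gjb6 to Gja1 reads within a library was compared because the astrocyte network uses both channels. Scaling each library by a single factor does not alter this ratio, whereas quantile normalization can. Naïve IP libraries had 21.7, 21.6, 23.6 and 20.4 Gjb6 reads per 100 Gja1 reads, and stress IP libraries had 28.2, 26.3, 25.1 and 22.4. Of the stress values 3 were above all naïve values, while replicate 15, at 22.4, fell between them. The mean log2 ratio differed by 0.22, a factor of 1.17, and the two-sided exact permutation p was 0.057, or 0.086 after adjustment over the 3 ratio tests. With a library left out, the exact permutation p ranged from 0.029 to 0.11. The lowest came without replicate 15, the smallest p that the 35 labelings of 3 against 4 allow. Replicate 15 was the only stress library among the naïve values. Leaving it out therefore fixes full separation in advance, and no conclusion is drawn from that p. In INPUT the values were 34.9, 31.8, 41.8 and 37.9 for naïve and 48.6, 33.3, 45.6 and 43.8 for stress, which overlapped (a factor of 1.16, exact permutation p 0.20, also 0.20 after adjustment). The ratio was lower in naïve IP than in naïve INPUT, by a factor of 1.67, with no overlap and an exact permutation p of 0.029. After adjustment that value was 0.086, and with 70 labelings none of the 3 tests could have come below 0.029 before it.

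**Figure D5:**
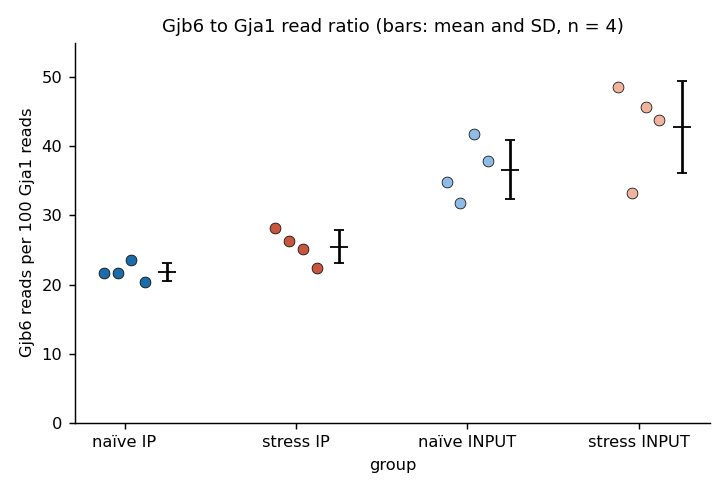
Gjb6 reads per 100 Gja1 reads in each library by group, with points for libraries and black bars for the mean and SD of 4. IP libraries lie between 20.4 and 28.2 and INPUT libraries between 31.8 and 48.6, and stress points overlap naïve points in both fractions.

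Of 11 other connexin and pannexin symbols (Gja3, Gja4, Gja5, Gja6, Gja10, Gjb1, Gjb5, Gjd3, Gjd4, Gje1 and Panx3), 2 had a mean above 1 CPM in any group. The other 9 stayed at or below 1.02 CPM in every library, and 2 of them had no read in any library. In a single library, no read allows a level of up to 0.183 CPM (3 reads in the shallowest library). The lower bound that all libraries together would give was not computed. Gjb1 (Cx32), a connexin of myelinating oligodendrocytes, was at 7.72 ± 1.02 CPM in naïve INPUT and 0.390 ± 0.145 CPM in naïve IP (SD, n = 4, log2 −4.03, limma adjusted p 1.2e-09). It too passed the filter only through its INPUT level, so a lower value in IP was a condition of its being tested. Gja4 (Cx37), a connexin of arterial endothelium, was at 1.61 ± 0.20 CPM in naïve INPUT and 0.108 ± 0.031 CPM in naïve IP, too low to enter the test there. In stressed mice it entered, again only through INPUT, at 2.21 CPM against 0.208 CPM in IP (log2 −2.97, limma adjusted p 1.8e-06). Neither was called under stress in INPUT, where Gja4 had an unadjusted p under 0.05, and neither was high enough to be tested in IP.

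Channels of other families that also form large pores were looked up as 10 symbols (CALHM channels and the LRRC8 subunits of the volume-regulated anion channel), and 6 were tested. In naïve mice 2 of these 6 were higher in IP and 4 lower, against 23.7% and 64.0% of all genes tested, so the counts do not set these channels apart. Lrrc8c (log2 1.68 ± 0.18, limma adjusted p 8.6e-07) and Lrrc8a, the obligate subunit (log2 1.57 ± 0.10, limma adjusted p 5.0e-09), were the 2 higher ones, at 77.6 and 266 CPM in IP. The lowest were Fam26e at −3.41, which was at 0.554 CPM in naïve IP and passed the filter only through INPUT (6.21 CPM), and Lrrc8b at −3.07. None of the 5 tested in IP, or of the 6 in INPUT, was called under stress.

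Genes whose products bind, phosphorylate, anchor or degrade connexins were looked up as 24 symbols, and all were tested. In naïve mice 11 were higher in IP, 12 lower and 1 (Src) not called, where 23.7% of all genes tested were called higher and 64.0% lower. Their median log2 value was −0.25, against −0.64 for all genes tested. The highest were Ezr (ezrin, a linker of membrane and actin) at 3.64 ± 0.06 and Hepacam (GlialCAM, which binds Cx43) at 3.08 ± 0.05. Nov, a secreted matrix protein known to bind Cx43, was lowest at −4.54 ± 0.21, followed by the kinase Prkce at −2.83 ± 0.08. Under stress 0 of the 24 were called in IP by limma, where 2 had an unadjusted p under 0.05, and 0 in INPUT, where 1 had. Over all genes tested, 0.440% were called in IP and 0.0442% in INPUT.

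The genes whose pattern over the 16 libraries was most like each connexin's were found from the root mean square difference (RMS) of log2(CPM + 0.1), each gene centred on its own mean, among 13340 other genes with a mean above 1 CPM. For Gja1 they were Epas1 (a hypoxia-inducible transcription factor), Slc6a11 (the GABA transporter GAT3 of astrocytes) and Fgfr3 (an FGF receptor of astrocytes), each with an RMS of 0.12. Gjb6 was closest to Sdc4 (0.15), Lonrf3 (0.15) and Timp4 (0.16), and Gjb2 to Clybl (0.13), Tmem241 (0.17) and Rpa1 (0.18). Panx2 was closest to Fth1 (0.13), Panx1 to Chn2 (0.22), Gjd2 to Tmem198 (0.22), Gjc1 to Marf1 (0.21) and Gjc3 to Nrep (0.25). The step between IP and INPUT is part of this likeness, which is given as a description.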

How the data were processed

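RNA was sequenced from 16 libraries (4 per group), and each was taken to its group by the sample labels. The authors used STAR for alignment to mm10 and HTSeq for counting uniquely mapped fragments on RefSeq genes, and deposited log2 CPM of 24060 genes, scaled to each library's total without gene length. A small constant sets the deposited floor at −6.40 on the log2 scale for 0 reads. Reads were recovered from these values, and 100% came out whole within 0.05 reads. Comparisons used limma 3.58.1 (R 4.3.3) with a variance trend on log2(CPM + 0.1), with a mean above 1 CPM and Benjamini-Hochberg adjusted p under 0.05 over all genes. Single genes and ratios had two-sided exact permutation tests. The fit was tested on simulated reads. Figures came from matplotlib 3.10.9 and tables from pandas 2.3.3 and NumPy 2.4.6 under Python 3.11.15. The genes, lists and motifs were chosen with earlier results of these data known. Genes outside the 8 were named by rule: Sox9, other connexins above 1 CPM in a group (some genes of that list are not reported here), the 2 highest and 2 lowest of each list in naïve mice, and the 3 most alike. Promoters came from RefSeq (GRCm38.p6), where 6 of 8 genes matched, lengths from GENCODE M21. Where the labels do not name separate mice, p-values measure only the spread between libraries. Counting intervals and floors cover counting error only, since reads after PCR are not independent molecules. Alternatives covered pseudocounts, filters, scalings, limma-voom, no variance trend, array weights, 1 model of all libraries, gene lengths and each library left out.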

Additional observations from a re-analysis of the deposited data

Results flagged for a closer look

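Of 48 combinations of a reported value and a group of 4 libraries, 1 held a library far from the other 3, where chance flags about 1 in 20. In stress INPUT, Gjb2 was at 11.9 CPM in replicate 9 and between 9.22 and 9.52 CPM in the others.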

How the results depend on the processing

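No paired analysis was possible because the labels do not say which IP and INPUT libraries share a mouse, and each library number occurs once. Precision was set by 4 libraries a group, and for Gjc1, Gjd2 and Panx1 in IP by the 5 to 35 reads behind each value. The numbers of genes called stayed at 3 higher and 5 lower (IP over INPUT, both conditions) and 0 (stress, all 3 tests) when any library was left out and under the other settings, except that a filter at a mean above 5 CPM left 3 lower genes in each condition, since Gjc1 and Gjd2 were no longer tested. Of the single-gene log2 values, 706 kept their direction and side of the threshold. Uncalled stress effects changed sign with some libraries left out: in INPUT Gjb6 (−0.042 to 0.14), Gjc3 (−0.073 to 0.022) and Gjd2 (−0.011 to 0.10), and for IP minus INPUT Gjb6 (−0.0017 to 0.19), Gjc1 (−0.15 to 0.18), Gjd2 (−0.24 to 0.24) and Panx1 (−0.24 to 0.29). The last comparison also turned for Gjc1 with a pseudocount of 1 CPM (0.10) or quantile normalization (0.12) and for Panx1 with a pseudocount of 1 CPM (−0.036) or array weights (−0.12). The causes were not tested. The log2 Gjb6 to Gja1 ratio in IP, stress against naïve, ranged from 0.17 to 0.28 with 1 library left out, with an exact p from 0.029 (without stress replicate 15) to 0.11. Shares per length moved with the length used. With the longest transcript they were, in naïve IP, 70.2% for Gja1, 28.3% for Gjb6, 1.02% for Gjb2, 0.0196% for Gjc1, 0.0861% for Gjc3, 0.0293% for Gjd2, 0.0152% for Panx1 and 0.365% for Panx2, and in naïve INPUT 40.0%, 27.0%, 4.21%, 0.929%, 5.66%, 2.09%, 2.10% and 18.1% in the same order. With the RefSeq-matched transcript, added after seeing the data, they were 74.9%, 23.8%, 0.858%, 0.0244%, 0.0725%, 0.0247%, 0.0128% and 0.307% in naïve IP, and 45.6%, 24.3%, 3.79%, 1.23%, 5.10%, 1.88%, 1.89% and 16.3% in naïve INPUT.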
